A study of Mus musculus with 160 samples.

Results

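A set of 40 genes of the cell division cycle was followed through 160 RNA-seq libraries of mouse distal colon. They are part of the 39179 genes counted in each library and were chosen by name: 17 act at the entry into S phase or in DNA replication, and 23 act in G2 and mitosis. All 40 were matched to an Ensembl identifier of the count files, and all 40 passed the filter on low counts in every comparison, so no member is missing from the counts below.

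A dividing cell first licenses its replication origins by loading the MCM2-7 helicase with Cdc6 and Cdt1. Cyclin E and E2F factors then carry it into S phase, when Pcna, the clamp of the DNA polymerases, and the enzymes of nucleotide supply (ribonucleotide reductase Rrm1 and Rrm2, thymidylate synthase Tyms) are used. The mitotic genes follow later: Cdk1 with cyclins A2, B1 and B2, the Aurora and Polo kinases, the kinetochore and spindle checkpoint proteins (Bub1, Bub1b, Cenpa, Cenpe, Cenpf), the mitotic kinesins, and Cdc20 and Ube2c of the anaphase-promoting complex pathway. In the colon most division takes place in the lower part of the crypts, where Lgr5-positive stem cells and their transit-amplifying offspring lie, and damage to the mucosa is followed by a phase of crypt regrowth.

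The study asked whether removal of predicted regulator genes of inflammatory bowel disease changes the colon in dextran sulfate sodium (DSS) colitis, a model in which DSS in the drinking water injures the epithelium. Homozygous knockout mice and wild-type littermates came from 4 lines. The Nckap1l line (labelled HEM1, 16 knockout and 15 wild-type libraries, strain C57BL6/J, no DSS dose given in the labels) had 5 days of DSS and 7 days of water, with tissue taken at day 12. The labels give 3% DSS for the Dock2 line (18 knockout and 24 wild-type libraries, C57BL6/J) and the Gpsm3 line (20 and 20, C57BL6/J). They give 3.5% DSS for the Dok3 line (26 knockout and 21 wild-type libraries, strain 129). In these 3 lines DSS lasted 5 days, with 5 days of water and tissue at day 10. The paper describes 3% DSS in a first round of Dok3 experiments before 3.5% was used, and a slightly lower dose for Nckap1l mice. By their labels all Gpsm3 and Dok3 libraries were from males. The Nckap1l knockout group held 12 males and 4 females, its wild-type group 7 and 8, the Dock2 knockout group 10 and 8, and the Dock2 wild-type group 12 and 12. The age of the mice is not in the labels, and neither is which mice received DSS and which only water, so no comparison by treatment was made. Each library carries its own number in the labels, but these do not state that each came from a separate mouse, so that p-values measure the spread between libraries.

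Values are CPM, a gene's counts per 1000000 counts of its library after scaling by trimmed mean of M-values, or log2 CPM. Library totals ran from 4344988 to 19993833 counts with a median of 15989625.5, so that 3 counts correspond to 0.15 to 0.69 CPM, and the lowest count of any of the 40 genes in any library was 14 (Bub1). The epithelial genes checked against the tissue label summed to between 2730 and 15810 CPM in each library. Of the 160 libraries, 38 stood apart by skin or striated muscle RNA: 17 of 31 in the Nckap1l line, 7 of 42 in Dock2, 3 of 40 in Gpsm3 and 11 of 47 in Dok3. In 5 Dok3 libraries (3 knockout, 2 wild-type) the Y-linked genes went against the sex label. The targeted gene itself differed by edgeR's quasi-likelihood test (Benjamini-Hochberg adjusted over all genes) only in the Gpsm3 line, where Gpsm3 ran from 0.247 to 3.54 CPM (median 0.572) in knockout and from 0.727 to 7.67 (median 3.21) in wild-type libraries, a log2 difference of −2.06 (SE 0.28, adjusted p = 1e-04). It was lower without passing the test in the Nckap1l line (Nckap1l, log2 difference −1.09, SE 0.41), the Dock2 line (Dock2, −0.62, SE 0.17, adjusted p = 0.21) and the Dok3 line (Dok3, −0.48, SE 0.39), and the ranges overlapped in all 4 lines. Knockout below therefore means the library labelled knockout.

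Mki67, the proliferation antigen Ki-67 (Ensembl gene ENSMUSG00000031004, mm10 chr7:135689784-135716361, minus strand), was the member with the highest level per length of exon, with a median of 39.8 RPKM over the 160 libraries (400.8 CPM, from 32.9 to 1145 CPM). Plk1, the Polo kinase of mitotic entry, followed with a median of 27.8 RPKM, then Top2a, which untangles sister chromatids, with 19.9 RPKM and Pcna with 19.4 RPKM. The lowest median was that of Gins2, a subunit of the replicative helicase complex, with 1.14 RPKM. The members spread differently over the libraries. Cdk1, the mitotic cyclin-dependent kinase, ranged 60.9-fold between its lowest and highest library and the checkpoint kinase Bub1 54.6-fold, whereas cyclin E2 (Ccne2) ranged 2.98-fold, Pcna 3.91-fold and Plk1 4.58-fold. The wide ranges rested on 4 low Gpsm3 libraries described further on: without them Cdk1 ranged 7.93-fold and Bub1 8.12-fold, and the widest were Ccne1 (13.4-fold) and Rrm2 (12.8-fold). Within groups, the SD of log2 CPM was highest for Rrm2, the regulated subunit of ribonucleotide reductase (0.825), and lowest for Tyms (0.311) and Ccne2 (0.319). The median SD over the 16769 genes with a mean of at least 1 CPM was 0.329, and all members but Tyms and Ccne2 lay above it.

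The mean log2 CPM of the 40 genes lay close together in the 8 groups. It was 4.67 ± 0.422 (SD, n = 16) in Nckap1l knockout and 4.81 ± 0.329 (n = 15) in Nckap1l wild-type libraries, 4.79 ± 0.363 (n = 18) and 4.78 ± 0.3 (n = 24) in the Dock2 line, and 4.77 ± 0.353 (n = 26) and 4.74 ± 0.335 (n = 21) in the Dok3 line. The Gpsm3 line had wider groups, with 4.51 ± 1.03 (n = 20) in knockout and 4.71 ± 0.719 (n = 20) in wild-type libraries. The Gpsm3 groups held the 4 lowest libraries, described next, and had 4.89 ± 0.504 (n = 17) and 4.8 ± 0.609 (n = 19) without them.

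**Figure D1:**
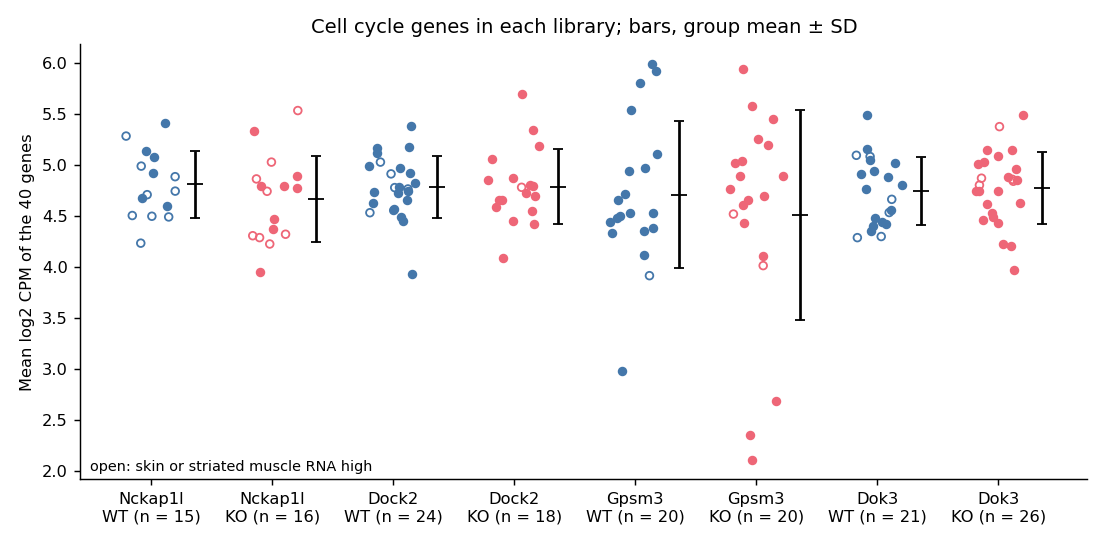
Mean log2 CPM of the 40 cell cycle genes in each of the 160 libraries, by line and genotype (points, libraries; bars, group mean ± SD; open points, libraries with high skin or striated muscle RNA). The 4 lowest points, between 2.12 and 2.98, are all in the Gpsm3 line, and the other 36 Gpsm3 libraries lie between 3.92 and 5.99.

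Knockout replicates 6, 9 and 10 and wild-type replicate 9 of the Gpsm3 line had the 4 lowest means of the cell cycle genes among all 160 libraries, at 2.35, 2.12, 2.69 and 2.98. Their totals of 14629933, 17370705, 16681950 and 17587411 counts were not low. All 4 belong to the first of the 2 runs of sample numbers in this line, a run of 20 libraries. A run is a block of nearby numbers, grouped here and not named in the labels. Mki67 was at 40.4, 32.9, 56.8 and 101 CPM in these 4 libraries, in the order just given, against 176.9 to 1145 in the other libraries of the same run. Cdk1 was at 2.09, 1.34, 2.86 and 4.74 CPM against 11.9 to 81.7. For 35 of the 40 members all 4 libraries lay below all other 36 Gpsm3 libraries, where 3.88% of the 16509 genes with a mean of at least 1 CPM did so; since the libraries were picked by these same genes, this is a description and no test. The exceptions were Aurka, Plk1, Tyms, Ccne1 and Ccne2.

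The low level reached other genes of division and some stem cell genes, and other epithelial genes were not low. Of 45 further mitotic genes outside the members 42 lay below the other 36 libraries in all 4, and of 45 further replication genes 33 did. Among 18 crypt stem cell genes 5 did: Lgr5, Ascl2, Axin2, Smoc2 and Ephb3. Lgr5, the receptor for R-spondins that marks crypt base stem cells, was at 0.36, 0.447, 0.865 and 0.771 CPM against 5.36 to 26.3 in the same run and 1.09 to 24.6 in the other, where wild-type replicate 13 came close to the 4. Axin2, a target of Wnt signalling, was at 6.91, 7.28, 7.38 and 10.0 CPM against 20.2 to 54.3. Ascl2, a transcription factor of the same stem cells, had 0.072, 0.128, 0 and 0 CPM, below the level of 3 counts in each. Mature markers lay within or above the range of the other libraries: the epithelial adhesion molecule Epcam was at 1156, 1390, 1626 and 1279 CPM against 994 to 1593, and the goblet cell product Clca1 at 17660, 10510, 8768 and 6707 against 551.8 to 7333. No gene of the epithelial, colonocyte, goblet cell or inflammation lists lay below the other 36 libraries in all 4. Of 8 smooth muscle genes, Acta2, Cnn1 and Tagln lay above them in all 4 (Acta2 1395, 1547, 1446 and 1350 CPM against 415 to 1093 in the same run), with 0.551% of genes above in the background. The mean log2 CPM of the smooth muscle genes was 9.67 to 10.01 in the 4 libraries and 7.56 to 9.67 in the other 36, and the part of more muscle layer in these libraries in the low values was not tested. In bulk tissue fewer dividing cells and less RNA of these genes per cell cannot be told apart. Values without these 4 libraries stand beside the main results of the Gpsm3 line, though not beside every range, median or count that they affect.

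**Figure D2:**
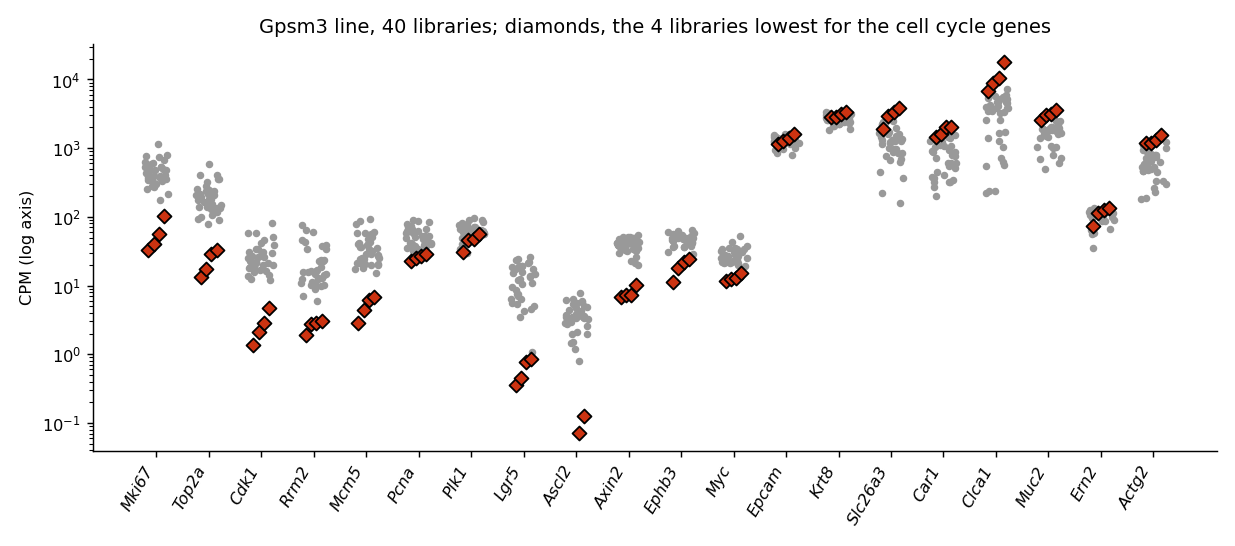
CPM on a log axis of selected cell cycle, stem cell, epithelial and muscle genes in the 40 Gpsm3 libraries (points, libraries; diamonds, the 4 libraries with the lowest mean of the cell cycle genes). Mki67 and Cdk1 lie far below the other libraries in the 4 and Lgr5 just below the lowest of them, at 1.09 CPM, whereas Epcam overlaps them.

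The comparison of knockout with wild type asked whether loss of each gene moved the division programme of the colon. No member passed the test between genotypes in any of the 4 lines. In edgeR's quasi-likelihood fit, 0 of 40 members had an adjusted p under 0.05, and 0 had an unadjusted p under 0.05, in the Nckap1l, Dock2, Gpsm3 and Dok3 lines alike; DESeq2 and limma-voom gave the same zeros. Few genes of any kind were called: 0% in Nckap1l (0 of 17947, with 807 at an unadjusted p under 0.05), 0.034% in Dock2 (6 of 17648), 0.00569% in Gpsm3 (1 of 17560) and 0% in Dok3 (0 of 17612, with 386 at an unadjusted p under 0.05). DESeq2 called 21, 69, 4 and 3 genes in these lines. A share of 0 among the members is therefore near the background.

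Mki67 ran from 157.9 to 595.3 CPM (median 325.8) in Nckap1l knockout and from 181.9 to 562.4 (median 368.6) in wild-type libraries. In the Dock2 line it ran from 253.2 to 772.6 (median 420.2) and from 206.7 to 554.1 (median 425.3), and in the Dok3 line from 230.6 to 583.1 (median 440.8) and from 239.3 to 630.7 (median 371.3). In the Gpsm3 line it ran from 32.9 to 756.3 (median 398.1) in knockout and from 101 to 1145 (median 372.0) in wild-type libraries. The lowest values of both genotypes, 32.9 and 101 CPM, come from the 4 low libraries. The groups overlapped in each line. Its log2 differences were −0.30 (SE 0.198), 0.06 (SE 0.104), −0.18 (SE 0.278) and 0.11 (SE 0.109) in the Nckap1l, Dock2, Gpsm3 and Dok3 lines, and −0.02 (SE 0.182) in Gpsm3 without the 4 low libraries.

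The intervals say how large a difference, averaged over the libraries of a line, these libraries leave room for. The paper describes treated and untreated mice of both genotypes, and treatment is not in the labels and was no term. A difference present only under DSS could therefore lie outside these bounds. In the Dock2 and Dok3 lines the 95% intervals of all 40 members stayed within 0.5 on the log2 scale, the outermost bounds being −0.46 and 0.34 in Dock2 and −0.49 and 0.39 in Dok3. In the Nckap1l line 19 members and in the Gpsm3 line 13 members had intervals within 0.5, and the outermost bounds were −0.69 and 0.33 in Nckap1l and −0.80 and 0.70 in Gpsm3. Without the 4 low libraries 30 Gpsm3 intervals lay within 0.5, with outermost bounds of −0.50 and 0.76. All 40 intervals stayed within 1 in all 4 lines.

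Members of the Nckap1l line leaned to lower values in knockout libraries, 39 of 40 with a negative log2 difference and a median of −0.16, where the median over all genes was 0.01. The members are not independent of each other, since they move together between libraries, and none passed the test. The median was −0.19 over the mitotic genes and −0.09 over the replication genes. The median kept its sign without the 17 libraries with skin or muscle RNA, at −0.29 with 1 member at an unadjusted p under 0.05. In the same comparison all 8 B cell genes had an unadjusted p under 0.05 with a median log2 difference of −2.39 and none passed adjustment; their part in the members' values was not tested. In the Gpsm3 line 8 members were positive with a median of −0.12, and without the 4 low libraries, of which 3 were knockout, 26 were positive with a median of 0.03. The Dock2 median was 0.01 with 23 positive, and the Dok3 median 0.05 with 26 positive, falling to −0.03 with 9 positive without its 11 libraries with skin or muscle RNA.

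**Figure D3:**
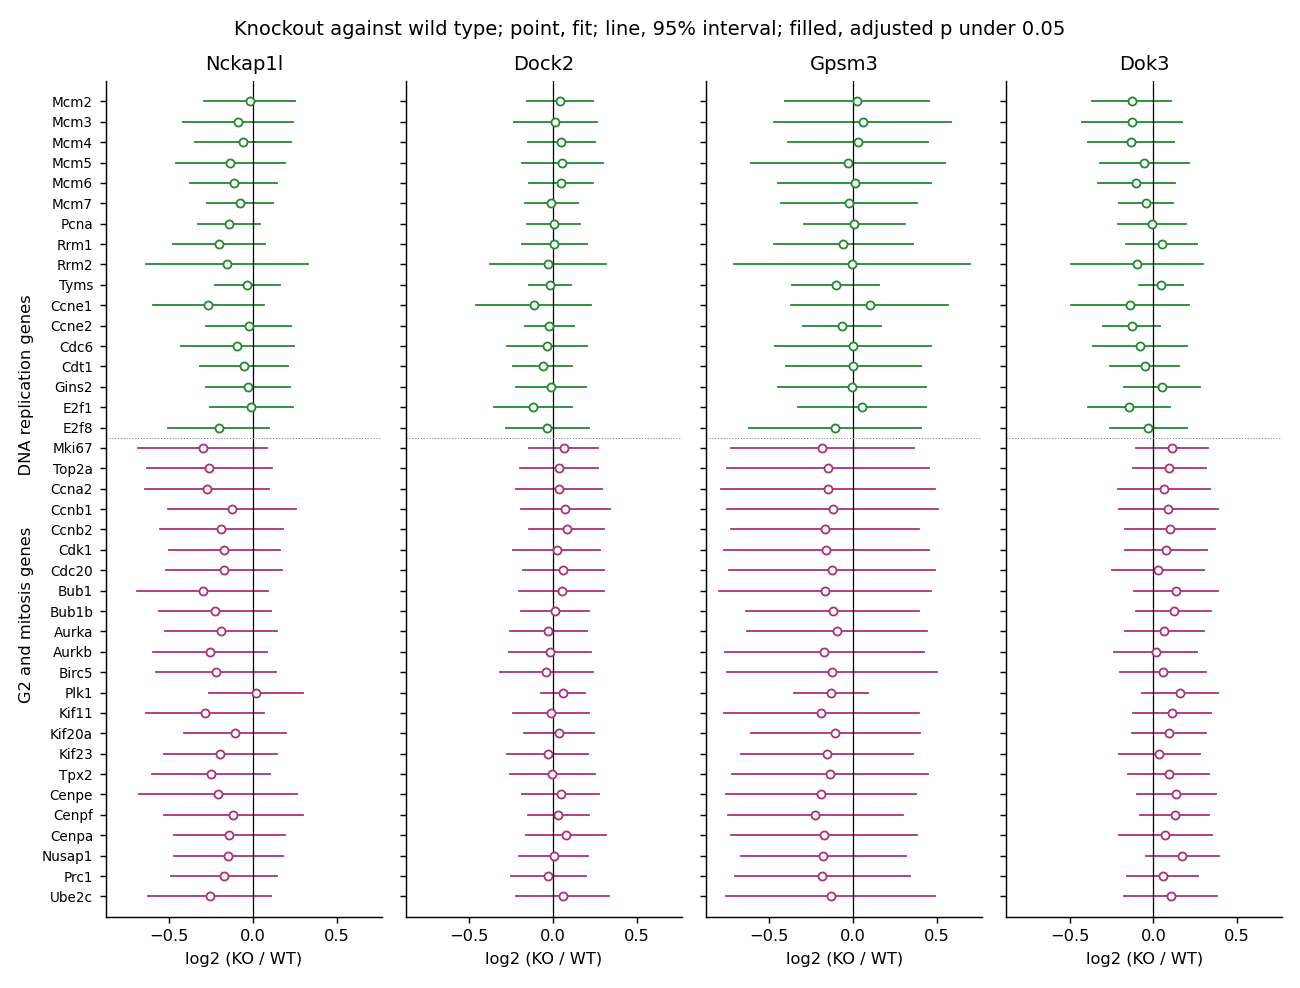
Log2 difference between knockout and wild-type libraries for each of the 40 genes in the 4 lines (points, edgeR fit; lines, 95% interval; filled points would mark an adjusted p under 0.05). No point is filled, and all intervals lie within 1 on either side of 0.

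The genotype difference itself was compared between lines and between sexes. For all 6 pairs of lines 0 of 40 members passed and 0 had an unadjusted p under 0.05, by edgeR, DESeq2 or limma-voom. Of 19849 genes, 0.0151% were called for Nckap1l against Dock2, 0.892% for Nckap1l against Gpsm3, 0.141% for Nckap1l against Dok3, 0.368% for Dock2 against Gpsm3, 0.0504% for Dock2 against Dok3 and 0.161% for Gpsm3 against Dok3. Between males and females the knockout difference passed for 0 members in the Nckap1l line (0% of all genes) and 0 in the Dock2 line (0.198%), again with 0 members at an unadjusted p under 0.05 by any of the 3 tools. These intervals were wide, with outermost bounds of −1.45 and 1.04 in the Nckap1l line and −0.78 and 0.71 in Dock2.

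Sex alone moved no member past the threshold by edgeR, DESeq2 or limma-voom. In the Dock2 line, where 9.75% of genes differed between the sexes, 39 of 40 members were higher in males with a median log2 difference of 0.12, and Ccne1 (cyclin E1, 0.37) and Ccna2 (cyclin A2, 0.28) had an unadjusted p under 0.05. In the Nckap1l line, where 0.178% of genes differed, 39 of 40 were higher in males with a median of 0.18 and Plk1, Ccnb2 and Ube2c had an unadjusted p under 0.05. Sex and sample-number run are partly confounded in this line, since all libraries of its second run are labelled male. Sex was not fitted with the run as a term. Without the libraries with skin or muscle RNA 23 of 40 were positive in the Nckap1l line with a median of 0.02, and in the Dock2 line Plk1 passed (0.16, SE 0.054, adjusted p = 0.040).

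Among wild-type libraries few members passed between lines. Pcna was higher in Nckap1l than in Dok3 wild-type libraries, by 0.40 (SE 0.13, adjusted p = 0.032), in a comparison where 8.85% of genes were called. It ran from 37.1 to 70.2 CPM (median 53.2) in the former and from 24.5 to 68.8 (median 41.1) in the latter, with wide overlap. Plk1 was higher than in Dok3 by 0.32 in Dock2 (SE 0.12, adjusted p = 0.045, 13.7% of genes called) and by 0.29 in Gpsm3 wild-type libraries (SE 0.11, adjusted p = 0.038, 28% called). No member passed between Nckap1l and Dock2 (7.63%), Nckap1l and Gpsm3 (12%) or Dock2 and Gpsm3 (0.267%), with 2, 1 and 0 members at an unadjusted p under 0.05 in edgeR; limma-voom called Ccne1 in both Nckap1l pairs (0.53 and 0.63) and DESeq2 none. All 3 calls were lost without the 38 libraries with skin or muscle RNA. Line, strain, DSS dose, tissue day and sample-number run cannot be told apart in these comparisons.

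The 40 genes varied together from library to library. After genotype and sex means were subtracted, the median Pearson correlation over the 780 pairs of members was 0.65 in the Nckap1l line (n = 31 libraries), 0.73 in Dock2 (n = 42), 0.92 in Gpsm3 (n = 40, 0.87 without the 4 low libraries) and 0.65 in Dok3 (n = 47). The points share libraries, depth and tissue makeup, so these are descriptions. The mitotic genes held together most closely, with median correlations of 0.91, 0.91, 0.98 and 0.90 among themselves, against 0.76, 0.80, 0.91 and 0.74 among the replication genes and 0.51, 0.60, 0.88 and 0.49 between the arms. Ccna2, Top2a and the spindle assembly factor Tpx2 followed the mean of the other 39 members most closely, with r of 0.97, 0.96 and 0.96 as the mean over lines. Tyms (0.68), Ccne2 (0.55) and Plk1 (0.46) followed it least.

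Outside the list, the 10 genes most like the mean of the members, among 16729 genes with a mean of at least 1 CPM and by the mean of the 4 within-line correlations, were Kif4, Nuf2, Mad2l1, Zwilch, Cdca8, Ercc6l, Smc2, Ncapg, Ncaph and Pclaf, with r from 0.961 to 0.942. Kif4 is a chromosome-bound kinesin, Nuf2, Mad2l1 and Zwilch belong to the kinetochore and its checkpoint, and Smc2, Ncapg and Ncaph are condensin subunits.

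Promoters are shown because the mitotic genes moved so closely with one another, and Cdk1, Top2a and Cdc20 were taken as examples that hold both words of late cell cycle promoters. A promoter here is the window from 250 bases before to 50 bases after the RefSeq start (assembly GRCm38.p6, the mm10 build), available for 33 of the 40 genes. Late cell cycle promoters are known for the cell cycle genes homology region (CHR, TTTGAA) near the start and for CCAAT boxes upstream, and S phase promoters for E2F sites. The 100 bases before the start of Cdk1, Top2a and Cdc20 are given 5′ to 3′ on the minus strand, with CHR (TTTGAA or its complement TTCAAA) and CCAAT (or ATTGG) in capitals.
Cdk1 (chr10:69352913-69353012): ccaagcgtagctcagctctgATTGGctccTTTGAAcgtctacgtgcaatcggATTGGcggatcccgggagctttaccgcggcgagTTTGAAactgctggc
Top2a (chr11:99024190-99024289): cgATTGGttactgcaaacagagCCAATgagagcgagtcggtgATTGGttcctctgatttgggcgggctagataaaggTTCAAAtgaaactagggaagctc
Cdc20 (chr4:118437344-118437443): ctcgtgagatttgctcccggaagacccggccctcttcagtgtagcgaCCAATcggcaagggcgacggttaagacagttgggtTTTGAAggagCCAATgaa

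For the replication arm, 30 bases around an E2F-type word in capitals are given where the word lies before the RefSeq start. Mcm5 and Cdc6 are read on the plus strand and Mcm6 and Mcm7 on the minus strand. RefSeq starts can differ from the gene bounds that give the other positions in this text. By those bounds the Mcm7 and Cdc6 stretches, and the ends of the Cdk1 and Cdc20 stretches above, lie inside the gene.
Mcm5 (chr8:75109345-75109374): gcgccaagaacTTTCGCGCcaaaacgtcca
Mcm6 (chr1:128359797-128359826): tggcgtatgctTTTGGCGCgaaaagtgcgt
Mcm7 (chr5:138172030-138172059): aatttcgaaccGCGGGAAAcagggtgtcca
Cdc6 (chr11:98908002-98908031): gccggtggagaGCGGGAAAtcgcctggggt

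The words were spread unevenly over the arms. CHR (TTTGAA, both strands) was found in 14 of 19 mitotic promoters (73.7%), in 2 of 14 replication promoters (14.3%) and in 18.1% of all 27025 promoters. Within the 100 bases before the start it was found in 6 of 19 (31.6%), 2 of 14 (14.3%) and 5.91%. CCAAT (both strands) was found in 17 of 19 (89.5%), 9 of 14 (64.3%) and 37.9%. The E2F words TTTGGCGC, TTTCCCGC, TTTCGCGC and TTTGCCGC (both strands) were found in 1 of 19 mitotic (5.26%), 6 of 14 replication (42.9%) and 2.32% of all promoters. Within the 100 bases before the start they were found in 0 of 19, 1 of 14 (7.14%) and 0.84%, so the difference between the arms rested mainly on the wider window. Words of the E2F group can overlap on opposite strands, as they do in Mcm5 and Mcm6. A match is a run of letters and not a measured binding site.

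Plk1 stood aside from the other mitotic genes, and its neighbour moved with it. Plk1 (mm10 chr7:122159439-122169873, plus strand) ends 19 bases from the end of Ern2 on the other strand, a sensor of endoplasmic reticulum stress in goblet cells, with a median of 111.6 CPM against 61.09 CPM for Plk1. Across libraries Plk1 correlated with Ern2 at r of 0.84, 0.65, 0.35 and 0.85 in the Nckap1l, Dock2, Gpsm3 and Dok3 lines, and with the mean of the other members at 0.44, 0.52, 0.70 and 0.19, while Ern2 and the other members correlated at −0.02, −0.18, −0.22 and −0.21. The libraries were made with a stranded kit, but the strand setting of the counting is not given in the sources used here, and whether reads of Ern2 entered the Plk1 counts was not tested. Results that rest on Plk1, including the line differences above, carry this limit. In addition 11 members overlap a gene on the other strand: Top2a, Ccna2, Cdc20, Kif20a, Nusap1, Prc1, Ube2c, Mcm7, Ccne2, Gins2 and E2f8. Of these, Ccne2 (11.5 CPM) and Gins2 (4.67 CPM) are far below their partners Ints8 (59.19 CPM) and Gse1 (97.35 CPM). The partner of Ube2c is Tnnc2, a troponin of skeletal muscle, which reached at most 0.264 CPM in any library, those with muscle RNA included, and the partners of Top2a and E2f8 reached at most 1.06 and 1.09 CPM. The striated muscle genes summed to as much as 14400 CPM in a Dok3 wild-type library. The low Tnnc2 value therefore does not show that the overlap left the Ube2c counts untouched. Whether reads shared by overlapping genes were left out of the counts was not tested.

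The members were then set against inflammation, as the mean log2 CPM of 30 genes of neutrophils and inflamed mucosa (S100a8, Tnf and Nos2 among them), none of them a member. This score ran from −0.87 to 6.01 in the Nckap1l line, −1.03 to 5.58 in Dock2, −1.28 to 5.24 in Gpsm3 and −1.38 to 7.34 in Dok3, and libraries were not split by it. A slope is the change in log2 CPM of a gene per unit of the score, with genotype, and sex where a line held both, as terms.

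Cell cycle genes rose with inflammation in each line and none fell. By edgeR's quasi-likelihood test 18 of 40 members rose in Nckap1l, 26 in Dock2, 33 in Gpsm3 and 33 in Dok3. Over all genes 47.3%, 55.5%, 54.1% and 62.5% were called in either direction and 23%, 28.5%, 27.9% and 32.4% upward, with 24.3%, 27%, 26.2% and 30.1% downward, and the median slope of all genes was near 0. The median slope of the members was 0.08, 0.11, 0.20 and 0.08. Replication genes rose in 9, 12, 16 and 16 of 17 cases and mitotic genes in 9, 14, 17 and 17 of 23.

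Rrm2 (mm10 chr12:24708241-24714146, plus strand) had the steepest slope of the 40 genes in each line. It was 0.26 (SE 0.033) in Nckap1l, 0.28 (SE 0.048) in Dock2, 0.41 (SE 0.064) in Gpsm3 and 0.25 (SE 0.022) in Dok3. Its level ran from 7.77 to 49.8 CPM in the Nckap1l line, 6.35 to 45.8 in Dock2, 1.92 to 75.9 in Gpsm3 and 7.67 to 60.1 in Dok3, so that single libraries in all lines differed several-fold. Cyclin E1, which drives entry into S phase with Cdk2, had 0.13, 0.25, 0.29 and 0.19, and the helicase subunit Mcm3 with 0.14, 0.18, 0.27 and 0.15. Among mitotic genes Ccnb1, cyclin B1, had 0.14, 0.14, 0.24 and 0.12.

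Those that rose in all 4 lines were 17: Mcm2, Mcm3, Mcm4, Mcm5, Pcna, Rrm1, Rrm2 and Ccne1 of the replication arm, and Ccnb1, Cdk1, Cdc20, Aurka, Birc5, Tpx2, Cenpa, Prc1 and Ube2c of the mitotic arm. Another 10 rose in 3 lines, 5 in 2 and 2 (Ccnb2 and Bub1b) in 1. The 6 that passed in none were Mki67, Plk1, Kif11, Cenpf, Nusap1 and Tyms, but without the 4 low libraries Mki67 (0.12, SE 0.043, adjusted p = 0.014 by edgeR) and Kif11 (0.16, SE 0.048, adjusted p = 0.0057) rose in the Gpsm3 line. The slope of Mki67 was 0.03 (SE 0.046), 0.05 (SE 0.037), 0.13 (SE 0.070) and 0.02 (SE 0.024), with adjusted p = 0.62, 0.31, 0.12 and 0.43 by edgeR, whereas Top2a rose in 3 lines. That Mki67 has a lower slope than Rrm2 was not tested. Tyms had −0.03, −0.02, 0.04 and −0.01.

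**Figure D4:**
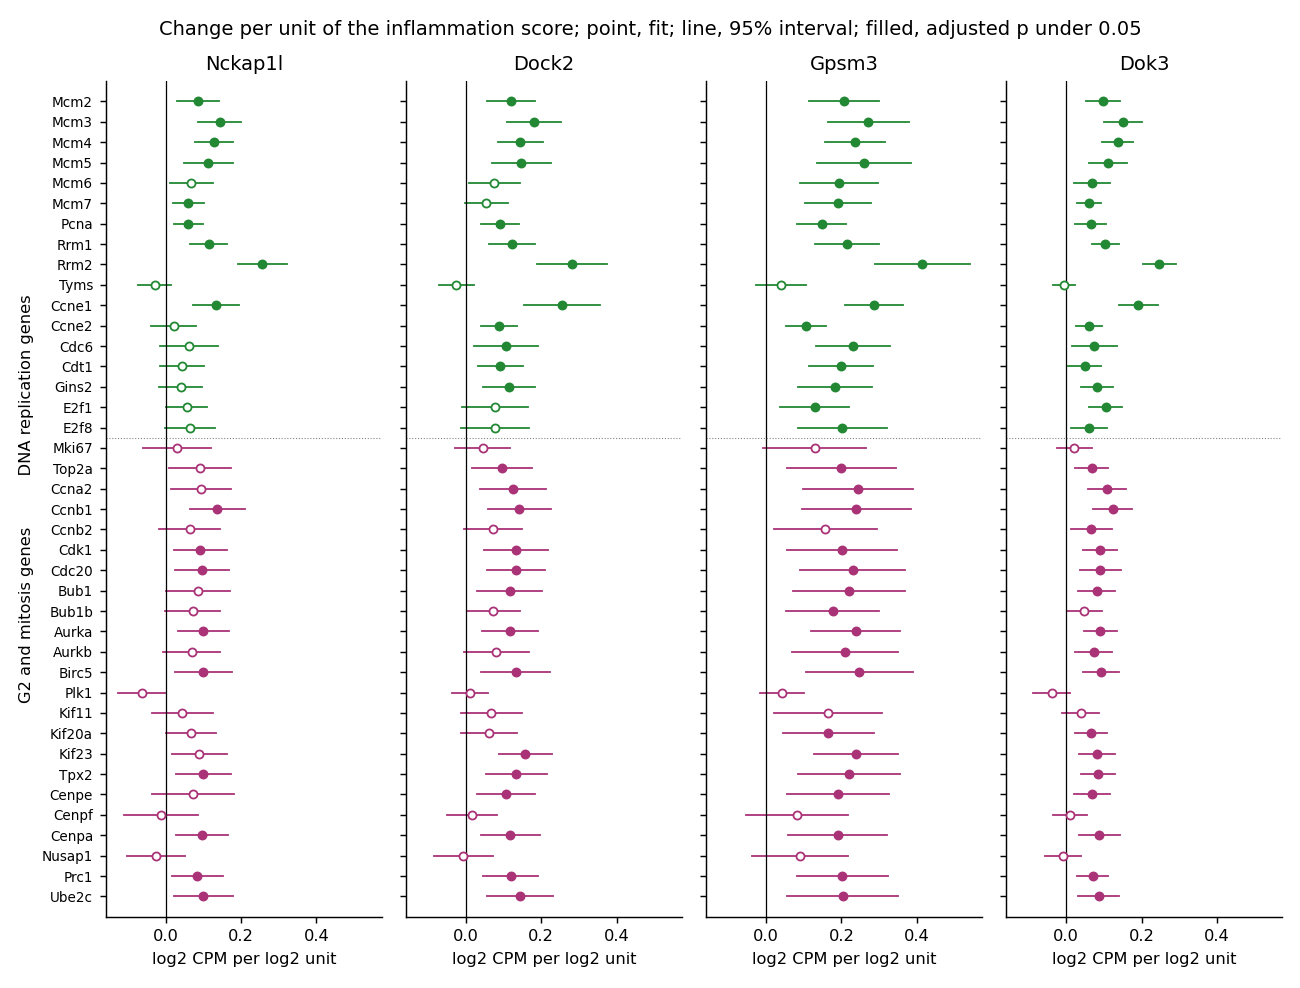
Slope of log2 CPM on the inflammation score for each of the 40 genes in the 4 lines (points, edgeR fit; lines, 95% interval; filled points, adjusted p under 0.05). Rrm2 lies farthest to the right in each line, at 0.26, 0.28, 0.41 and 0.25, and the 6 genes with no filled point in any line are Mki67, Plk1, Kif11, Cenpf, Nusap1 and Tyms.

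The count in the Nckap1l line depended on its libraries and on the terms of the fit. It was 9 without the 17 libraries with skin or muscle RNA, where 14.5% of all genes rose, and 10 with the run of sample numbers as a term, where 47.3% were called, of which 9 rose and Plk1 fell (−0.07, SE 0.026, adjusted p = 0.038). In the Gpsm3 line 36 members rose without the 4 low libraries, where 28.9% of genes did, and in the Dok3 line 30 rose without the 5 libraries that went against the sex label, where 29.7% did. With the epithelial genes as a term 27, 24, 35 and 34 members rose in the 4 lines, where 23.7%, 29.4%, 29.9% and 27.6% of genes did.

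Cells of other kinds moved with the score as well. All 7 macrophage genes and all 7 fibroblast genes rose with it in all 4 lines, and of 8 T cell genes 8, 7, 8 and 6 rose. The macrophage genes summed to between 96.5 and 1447 CPM, with group medians from 302.3 to 431.7, and the fibroblast genes to between 1254 and 21580 CPM, with group medians from 2995 to 4616; none of these lists was absent from a group. Of 9 colonocyte genes 7, 6, 7 and 6 fell, and of 7 goblet cell genes 4, 3, 5 and 4. The mean of the smooth muscle genes correlated with that of the members at r of −0.71, −0.38, −0.77 and 0.04 in Nckap1l, Dock2, Gpsm3 and Dok3. In the Gpsm3 line without the 4 low libraries all 8 smooth muscle genes fell with the inflammation score. The part of immune, stromal, epithelial or muscle cells in the members' slopes was not tested.

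As correlations, the mean of the members and the inflammation score had Pearson's r of 0.39, 0.44, 0.41 and 0.49 and Spearman's rho of 0.34, 0.52, 0.42 and 0.48 in the Nckap1l, Dock2, Gpsm3 and Dok3 lines, and r of 0.31, 0.49, 0.33 and 0.38 without the 2 libraries farthest from the median score. Without the 4 low libraries the Gpsm3 values were r = 0.64 and rho = 0.56 (n = 36). The replication arm had the higher value in each line, with r of 0.49, 0.50, 0.52 and 0.60, against 0.29, 0.36, 0.34 and 0.34 for the mitotic arm, and 0.74 against 0.55 in Gpsm3 without the 4. Within runs of sample numbers r was 0.25, 0.76 and −0.09 in the Nckap1l line (n = 14, 9 and 8), 0.28 and 0.74 in Gpsm3 (n = 20 and 20, with 0.54 in the former without the 4, n = 16) and 0.48 and 0.53 in Dok3 (n = 30 and 17), so the relation was not seen in the last Nckap1l run. All 30 inflammation genes taken singly had a positive r with the mean of the members in each line. Tnf, the cytokine, had r of 0.44, 0.60, 0.36 and 0.42, and S100a8, the neutrophil calprotectin subunit, 0.36, 0.45, 0.43 and 0.46. Without the 4 low libraries the Gpsm3 values were 0.71 for Tnf and 0.59 for S100a8.

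Against the crypt stem cell genes the direction was the other way round in 3 lines and depended on 4 libraries in the fourth. The stem cell score, the mean log2 CPM of 20 genes, ran over less than 1 unit in the Nckap1l, Dock2 and Dok3 lines, from 4.08 to 4.80, 3.98 to 4.74 and 3.90 to 4.77. Members fell with it in 6 of 40 cases in Nckap1l, where 22.4% of genes were called in either direction and 11.7% downward. They fell in 8 in Dock2 (26% and 14.3%) and in 26 in Dok3 (24.1% and 12.1%). None rose, where 10.7%, 11.7% and 11.9% of genes did. The share of members that fell was near the background in Nckap1l and Dock2 and above it in Dok3. The median slopes were −0.88, −0.77 and −0.82 log2 per unit of score. In Nckap1l the 6 genes, Rrm2, Mcm2, Mcm3, Mcm4, Mcm5 and Ccne1, were all of the replication arm. In Dock2, 4 were of each arm. In Dok3, 9 were of the replication arm and 17 mitotic, with Cdk1 at −1.10 (SE 0.26, adjusted p = 0.0020 by edgeR) and Rrm2 at −1.43 (SE 0.43, adjusted p = 0.012).

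Stem cell and inflammation genes were themselves related in these lines, since 23 of 24, 21 of 21 and 20 of 22 inflammation genes tested fell with the stem cell score in Nckap1l, Dock2 and Dok3. With the inflammation score as a term 2 members (Ccne2 and Plk1), 0 and 4 (Aurka, Cenpe, Cdk1 and Kif23) fell, where 15%, 2.53% and 12% of genes did. Without the libraries with skin or muscle RNA 0, 0 and 20 fell, where 0%, 1.37% and 17.8% of genes did.

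In the Gpsm3 line 16 members rose with the stem cell score, 3 of the replication and 13 of the mitotic arm, where 9.59% of genes were called in either direction and 5.87% upward, with 3.72% downward. The median slope was 1.68. Cenpf, a kinetochore protein, had 2.27 (SE 0.48, adjusted p = 0.0021 by edgeR) and Mki67 2.20 (SE 0.55, adjusted p = 0.0093). The 4 libraries lowest for the members were also the 4 lowest for the stem cell genes, with scores of 3.32 to 3.59 against 3.91 to 4.71 in the other 36. Without them all 40 slopes were negative, 0 members rose and 12 fell, with 25.1% of genes called and 12.8% downward, a median of −1.33 and values from −3.15 (Rrm2) to −0.23 (Cenpf). All 12 that fell were of the replication arm, and 0 of the 23 mitotic members fell. In the same fit 17 of 19 inflammation genes tested fell with the stem cell score. The part of inflammation in these slopes was not tested. Whether the slopes differ between lines was not tested.

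**Figure D5:**
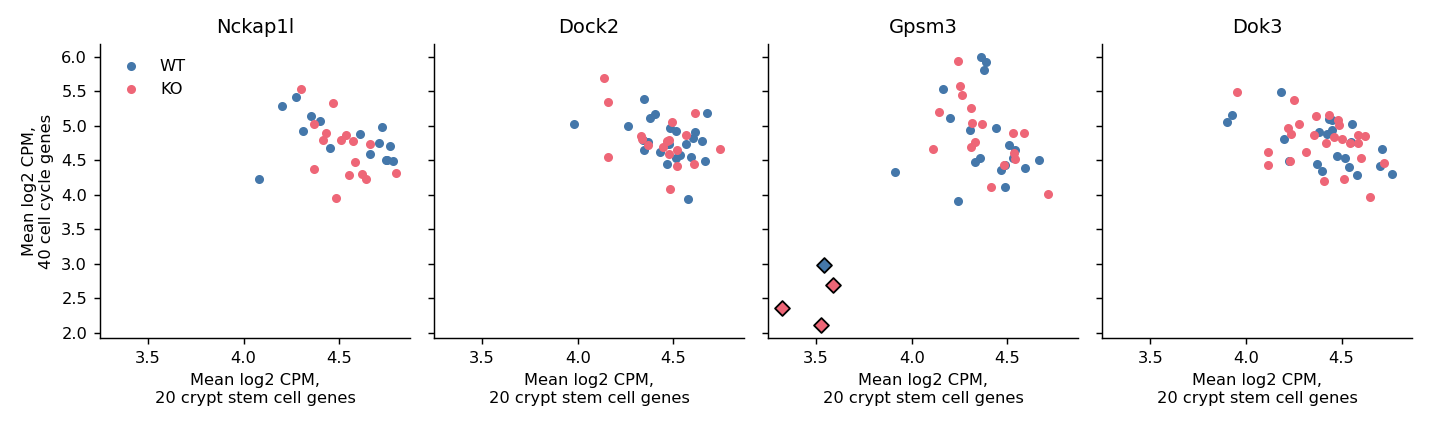
Mean log2 CPM of the 40 cell cycle genes against that of the 20 crypt stem cell genes in the libraries of each line (points, libraries by genotype). In the Gpsm3 line 4 libraries lie at the lower left, with stem cell means of 3.32 to 3.59 and cell cycle means of 2.12 to 2.98, apart from the other 36.

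The correlation of the member mean with the stem cell score was r = −0.35, −0.35 and −0.46 (rho −0.47, −0.35 and −0.40) in Nckap1l, Dock2 and Dok3. In Gpsm3 it was 0.58 with a rho of 0.03, and −0.33 with a rho of −0.38 without the 4 libraries. Within runs r was −0.64, −0.63 and 0.17 in Nckap1l, 0.75 and −0.21 in Gpsm3 (−0.42 in the former without the 4), and −0.45 and −0.49 in Dok3. The stem cell genes differed among themselves. Ephb2, the ephrin receptor that is graded along the crypt, had positive r with the mean of the members in every line (0.53, 0.54, 0.77 and 0.33), as did Mex3a (0.45, 0.32, 0.84 and 0.47). Znrf3, the ubiquitin ligase that limits Wnt receptors, had −0.46, −0.56, −0.22 and −0.54, and Rgmb −0.47, −0.36, −0.36 and −0.59, with −0.67 and −0.61 in Gpsm3 without the 4 libraries. Lgr5 had −0.20, −0.36, 0.50 and −0.57, and −0.35 in Gpsm3 without the 4 libraries.

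Wider lists of cell cycle genes were tested in the same fits. In the knockout comparisons 0 of 45 further mitotic genes and 0 of 46 further replication genes (45 tested in Dok3) passed in any line by edgeR. Of 6 D cyclins and G1 kinases (Ccnd1, Ccnd2, Ccnd3, Cdk4, Cdk6 and Cdk2) and of 9 tested CDK inhibitors and pocket proteins 0 passed as well. The smallest unadjusted p among them was that of Cdk6, a G1 kinase, in the Nckap1l line (log2 difference 0.32, SE 0.108, adjusted p = 0.92), followed by Cdkn1c, the CDK inhibitor p57, in that line (0.36, SE 0.141). Among the further mitotic genes Pimreg (0.45) came first, also in the Nckap1l line.

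With inflammation 14, 20, 35 and 27 of the further mitotic genes rose in the Nckap1l, Dock2, Gpsm3 and Dok3 lines and none fell, and of the further replication genes 19, 23, 41 and 28 rose while 1, 1, 0 and 1 fell. Without the 4 low libraries 43 further mitotic and 45 further replication genes rose in the Gpsm3 line. Ccnd1 and Ccnd3, D cyclins that answer to growth signals, and the kinases Cdk2 and Cdk4 rose in all 4 lines. Ccnd1 had slopes of 0.08, 0.13, 0.14 and 0.07 and Cdk4 of 0.04, 0.05, 0.10 and 0.05. Ccnd2 fell in Nckap1l (−0.12), Gpsm3 (−0.06) and Dok3 (−0.05). The kinase Cdk6 fell in Dock2 (−0.065) and Gpsm3 (−0.071) and did not pass in Nckap1l (−0.033) or Dok3 (0.005). Among inhibitors Cdkn2b, the INK4 protein p15, fell in all 4 lines (−0.19, −0.23, −0.22 and −0.23), and so did Rbl2, the pocket protein p130 of resting cells (−0.05, −0.12, −0.05 and −0.06). Cdkn1a, the inhibitor p21, fell in Nckap1l (−0.05), Gpsm3 (−0.16) and Dok3 (−0.14), whereas Cdkn2d, the INK4 protein p19, rose in all 4 (0.14, 0.12, 0.13 and 0.15). Another inhibitor, Cdkn2c, rose in Gpsm3 (0.10) and Dok3 (0.08). Cdkn1b and Rbl1 fell in Dock2 and Dok3, and Cdkn1c and Rb1 passed in no line.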

How the data were processed

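The authors prepared ribosomal RNA-depleted stranded libraries from distal colon, sequenced single reads and, per the labels, used STAR, featureCounts of Subread and mm10; versions and the strand setting are not given in the sources used here. The deposited values are raw read counts per Ensembl gene, 1 file per library. Names came from GENCODE M21 for 37607 of 39179 genes (96.0%), which held 99.67% of all counts. No 2 libraries were identical. The members and lists were chosen with earlier results of these data known.

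In R 4.3.3, edgeR 4.0.16 scaled libraries by TMM, kept genes by filterByExpr and fitted quasi-likelihood models per line, with sex as a term where a line held both, or over all 8 groups for comparisons between lines. The adjustment (Benjamini-Hochberg) ran over all genes kept, with a threshold of 0.05, and 95% intervals are 1.96 SE. Scores are mean log2 CPM with a prior count of 2. The authors used limma-voom, which stands among the alternatives (limma 3.58.1, DESeq2 1.42.0). Libraries stood apart where the mean of the skin or striated muscle genes was over 3 scaled median absolute deviations above the median. Named genes were all members, the targeted genes, of every further list the genes that passed or had the smallest p (for the further replication genes it is not reported here), and the 10 genes most like the members. Genes described in the low Gpsm3 libraries and against single stem cell and inflammation genes were chosen after their values were seen. The scripts were tested on simulated data. The 3-count level covers counting error only, whereas SEs and intervals include the spread between libraries.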

Additional observations from a re-analysis of the deposited data

How the results depend on the processing

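The genotype comparisons kept 0 of 40 members passing under every alternative run. No paired analysis was possible because replicate numbers follow accession order and link no libraries. The counts in this paragraph show only how far the number of members passing moved. Where the share of all genes in the same fit is not given above, a count cannot be set against the background. The number of members passing on the stem cell score moved most. In Nckap1l (6 as reported) it was 2 by limma-voom, 12 by DESeq2, 0 without libraries with skin or muscle RNA, 14 in males and 2 with the inflammation score as a term. In Dock2 (8) it was 5 without the low-count filter, 0 without those libraries, 20 in males, and 0 with either the epithelial genes or the inflammation score as a term. In Gpsm3 (16) it was 9 by limma-voom, 10 without the filter, 33 by DESeq2, 25 without those libraries, 8 with the sample-number run, 34 with the epithelial genes and 38 with inflammation as a term. In Dok3 (26) it was 15 by limma-voom, 4 with inflammation as a term and 16 without the 5 libraries against the sex label. For the inflammation score Nckap1l (18) gave 9 without those libraries and 10 with the run. Dock2 males against females gave 1 in place of 0 without those libraries. Among wild-type pairs limma-voom gave 1 for Nckap1l against Dock2 and 1 against Gpsm3, in place of 0. Nckap1l against Dok3 (1) gave 0 without those libraries and 0 in males, Dock2 against Dok3 (1) gave 0 in both and 0 without the filter, and Gpsm3 against Dok3 (1) gave 0 without those libraries and 3 (Plk1, Tyms and Ccnb2) without the 4 low libraries.

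Without the 4 low Gpsm3 libraries, an alternative chosen after seeing the data, 12 members fell with the stem cell score. All 12 were of the replication arm, and they were not among the 16 that rose as reported. None of those 16 passed edgeR's test without the 4 libraries. The slopes of those 16 turned to −0.74 (Mki67), −0.70 (Ccnb2), −1.24 (Cdc20), −1.10 (Bub1b), −1.27 (Aurkb), −1.15 (Kif11), −0.94 (Kif20a), −1.38 (Cenpe), −0.23 (Cenpf), −1.10 (Cenpa), −0.55 (Nusap1), −1.20 (Prc1), −1.19 (Ube2c), −0.30 (Tyms), −0.75 (E2f1) and −1.25 (E2f8). Over members passing as reported, 1025 values under alternatives kept direction and threshold, 164 kept direction without passing, and 16 turned. The cause of these shifts was not tested. Leaving out the 5 Dok3 libraries was also chosen after seeing the data. Groups held over 5 libraries, so single libraries were not left out in turn.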

Other observations

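The mean of the 40 cell cycle genes moved against smooth muscle RNA in 3 of the 4 lines. Its Pearson correlation across libraries with the mean of 8 smooth muscle genes, contractile proteins such as Myh11 and Des, was −0.71 in Nckap1l (n = 31), −0.38 in Dock2 (n = 42), −0.77 in Gpsm3 (n = 40, −0.71 without the 4 low libraries) and 0.04 in Dok3 (n = 47). The mean of the D cyclins and G1 kinases (Cdk4, Cdk6 and Cdk2) correlated with the members at 0.53, 0.51, 0.76 and 0.43 in the same lines. These values share libraries and tissue makeup, and how much muscle wall each piece of colon held was not tested.

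Highest for the members among all libraries were Gpsm3 wild-type replicate 14 (mean log2 CPM 5.99), Gpsm3 knockout replicate 18 (5.94) and Gpsm3 wild-type replicate 7 (5.92), so the line with the 4 lowest libraries also held the 3 highest.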
